A study of Mus musculus with 14 samples.

Results

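Glut_21 is a group of neuronal nuclei from mouse brain that the authors of the data set named with a glutamatergic label and a number. It was taken here as every brain nucleus carrying that deposited label, which gave 345 nuclei of 31324 in the brain part of the series and of 109000 nuclei in brain and retina together. The study used mice whose endothelial cells, the cells that line blood vessels, lost the type I TGF-beta receptor Tgfbr1, and asked in brain how endothelial gene expression changed. Vascular fragments were enriched from minced brain by spinning through Ficoll, and single nuclei were sequenced by PIPseq 4PLUS, a droplet method that counts RNA molecules by unique molecular identifiers (UMIs) at their 3′ ends. Neurons were carried along in that preparation, so the number of Glut_21 nuclei reflects what entered the pellet as well as what the brain held.

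There was 1 library per genotype, each from 2 pooled brains at postnatal day 14. The control library is labelled wild type (WT). The other, called CKO here after its label Tgfbr1-CKO, came from Cdh5CreER mice (also written VEcadCreER) with 1 floxed and 1 null Tgfbr1 allele, and the study's text gives 4-hydroxytamoxifen between postnatal days 3 and 5 for mice of this genotype. The Cdh5 promoter drives CreER in endothelial cells, so neurons of the CKO brains were not the intended site of recombination, while the null allele was present in all their cells. With 1 library per genotype there was no replicate check of any difference between them, and genotype, pool of animals and library cannot be told apart. Intervals below are exact 95% intervals, binomial for shares and Poisson for counts, and cover counting error only.

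Purkinje cells are the large GABA-releasing neurons whose axons form the output of the cerebellar cortex. Each receives parallel fibre synapses and climbing fibre input, which drives large dendritic calcium signals, shaped by the inositol trisphosphate receptor Itpr1 and by calcium-binding proteins. They form stripes across the cerebellum that differ in the enzyme aldolase C (Aldoc, also called zebrin II).

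The genes of Glut_21 went against its glutamatergic label. Of 10 Purkinje cell markers, 9 were raised, meaning at least 2-fold above all other brain nuclei and present in at least 5% of Glut_21 nuclei, and Rora was the exception. No other of 57 marker lists had more than 3 raised members. On these markers Glut_21 is Purkinje cell-like, which places it in the cerebellum, and it is called Glut_21 throughout.

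Glut_21 held 1143178 UMIs in 136 control nuclei and 827850 UMIs in 209 CKO nuclei. The median nucleus had 5946.5 UMIs and 1848 genes in control and 2750 UMIs and 1152 genes in CKO. The lower depth in CKO was not limited to Glut_21, since all 11 neuronal labels had a lower median there. Levels are therefore given as UMIs of a gene per 1000000 UMIs (CPM), summed over nuclei, and are compared between libraries or labels for 1 gene at a time, because 3′ counts are not scaled to gene length. Other neurons are all remaining nuclei with a Glut or GABA label, pooled over both libraries unless a ratio is given. The libraries shared 2 barcode sequences, none of them in Glut_21.

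Tgfbr1 (chromosome 4, 47353134 to 47414931, GRCm39), the deleted gene, had 16 UMIs in control and 37 in CKO over all of Glut_21. These are 14 CPM in control and 44.7 CPM in CKO, a ratio of 3.19 (1.73 to 6.15), so the library with the deletion was the higher. In nuclei labelled endothelial cells, the intended site, Tgfbr1 stood at 69.1 CPM in control and 62.9 CPM in CKO. A 3′ count can come from a recombined allele that still makes a transcript, so Tgfbr1 counts did not check the genotype here.

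Over all of its nuclei, the markers that set Glut_21 apart were close in level between libraries. Car8 (chromosome 4, 8141533 to 8239088), which binds Itpr1 and lowers its affinity for its ligand, stood at 2615 CPM in control and 2601 CPM in CKO, 204 times its level in all other nuclei. Itpr1 (chromosome 6, 108190048 to 108528070) stood at 10434 CPM in control and 10207 CPM in CKO, and every Glut_21 nucleus held it. Calb1, the calcium buffer calbindin, stood at 795 CPM in control and 859 CPM in CKO. For these genes the ratio of CKO to control was 0.995 (0.941 to 1.05), 0.978 (0.951 to 1.01) and 1.08 (0.978 to 1.19). None of them separated the libraries over all of Glut_21. In nuclei with a Ptprd UMI, a set described further on, the Itpr1 ratio was 0.766 (0.731 to 0.803). In nuclei without one it was 0.982 (0.948 to 1.02). Pcp2 (chromosome 8, 3673371 to 3675545), a modulator of G protein signalling named for Purkinje cells, was lower in CKO, with 309 CPM in control and 252 CPM in CKO and a ratio of 0.818 (0.686 to 0.973). Ppp1r17, a phosphatase inhibitor of Purkinje cells, had 194 CPM in control and 186 CPM in CKO. Slc1a6, the glutamate transporter EAAT4 of Purkinje cell spines, had 451 CPM in control and 509 CPM in CKO. Skor2, a transcriptional corepressor needed for Purkinje cell differentiation, had 91.0 CPM in control and 91.8 CPM in CKO and was 288 times higher than in all other nuclei. Foxp2 and Pcp4 had 595 CPM in control and 600.4 CPM in CKO, and 469.7 CPM in control and 484 CPM in CKO. Rora, the nuclear receptor mutated in the staggerer mouse, was present at 2286 CPM in control and 2651 CPM in CKO, only 1.08 times the level of all other nuclei, while the label GABA_22 held it at 55858 CPM.

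**Figure D1:**
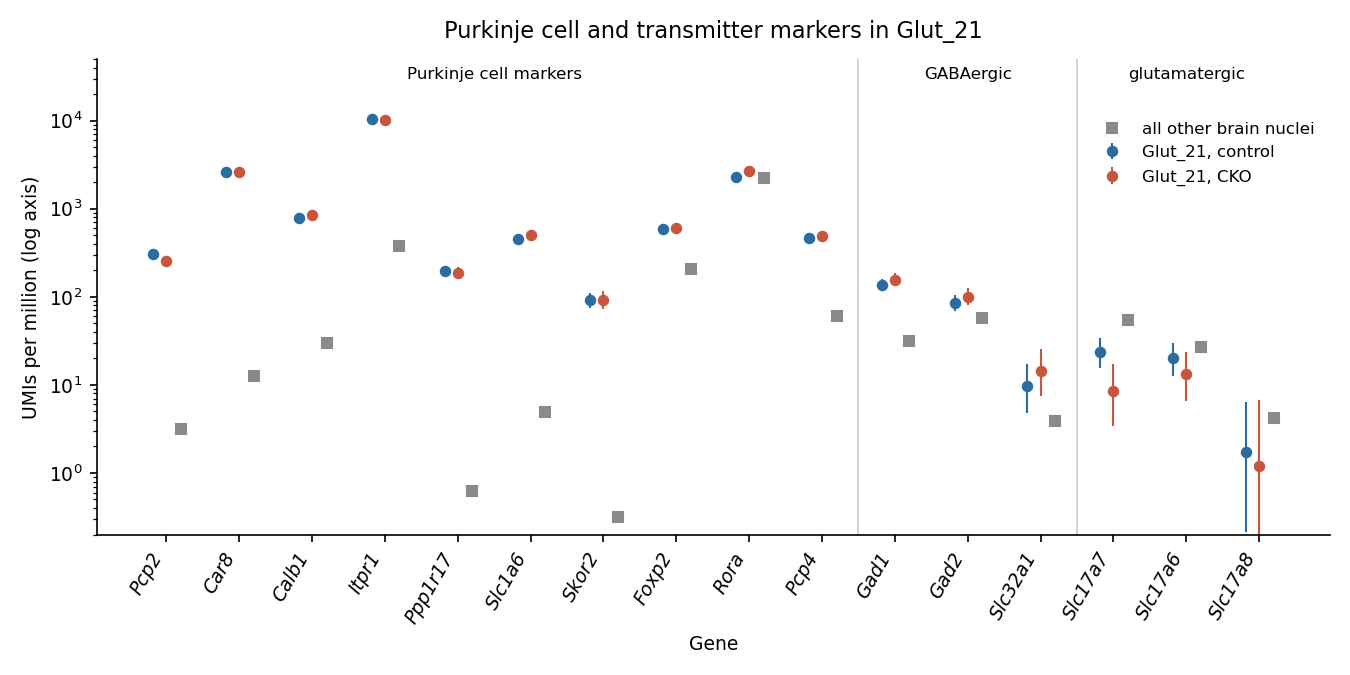
Levels of 10 Purkinje cell markers and of 3 GABAergic and 3 glutamatergic transmitter genes in Glut_21, in CPM on a log axis. Circles give each library with its exact Poisson interval, and squares give all other brain nuclei pooled. Of the Purkinje cell markers, all but Rora lie at least 2-fold above the squares in both libraries, while the 3 vesicular glutamate transporters lie below them.

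Droplet data carry some RNA from other cells. The share of nuclei holding a marker was therefore set beside Glut_0, the most numerous neuronal label, in which Purkinje cell markers should be absent. Glut_0 nuclei had median depths of 5004 UMIs in control and 2314 in CKO. Each nucleus was thinned to 1000 UMIs, which left out 13 control and 38 CKO nuclei of Glut_21. Car8 was then found in 86.2% of control and 81.9% of CKO nuclei of Glut_21, against 0.0542% and 0% of Glut_0, and unthinned in 97.1% and 95.7% of Glut_21 nuclei. Slc1a6 was found in 43.9% of control and 40.9% of CKO nuclei after thinning, against 0.380% and 0.168% of Glut_0, and in 82.4% and 69.9% unthinned. Both genes were thus far above the background measured in Glut_0 in both libraries. The median Glut_21 nucleus held 8 of the 10 markers against 1 in other nuclei, and 4 of 345 Glut_21 nuclei lacked all of Pcp2, Car8, Ppp1r17, Slc1a6 and Skor2.

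The label closest to Glut_21 on some of these markers was Glut_20, which held Pcp2 at 288 CPM against 285 CPM in Glut_21 over both libraries. It had Car8 at 257 CPM, far below the level in Glut_21, and no Skor2 UMI. Pcp4 was higher in Glut_20, at 1897 CPM against 476 CPM in Glut_21.

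Transmitter genes also went against the label. The vesicular glutamate transporters Slc17a7, Slc17a6 and Slc17a8 summed to 45.5 CPM in control and 23.0 CPM in CKO, and none was raised. Gad1, which makes GABA from glutamate, stood at 136 CPM in control and 157 CPM in CKO, 4.65 times the level of all other nuclei. Slc32a1, which loads GABA into vesicles, had only 11 UMIs in control and 12 in CKO but was also raised, 3.04-fold. Gad2 stood at 85.7 CPM in control and 100.3 CPM in CKO, 1.61 times other nuclei and under the 2-fold rule. The genes that make and load GABA were therefore above and the glutamate transporters below the rest of the brain nuclei.

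The other cerebellar lists were low. Cerebellar granule cell markers summed to 319 CPM in control and 316 CPM in CKO with 0 of 11 raised, Chn2 being the most abundant. Molecular layer interneuron markers had 1 of 8 raised, the calcium buffer Pvalb, which Purkinje cells also use. The 3 of 8 raised unipolar brush cell markers included Plcb4, which Purkinje cells express as well. The 3 of 9 raised Cajal-Retzius markers were the transcription factors Lhx1, Lhx5 and Ebf3. RNA of non-neuronal cells was measured too. Oligodendrocyte markers summed to 308 CPM in control and 527 CPM in CKO, with Mbp the most abundant. Astrocyte markers summed to 325 and 232 CPM, and endothelial markers to 80.5 and 58.0 CPM. Choroid plexus markers, led by Ttr, summed to 962 CPM in control and 447 CPM in CKO. Of these 4 non-neuronal lists only the choroid plexus had a raised member, the chloride channel gene Clic6 (1 of 8).

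The 20 leading genes, ranked by fold over the highest of all other neuronal labels, held 3 of the Purkinje cell markers, Skor2, Slc1a6 and Itpr1. Arhgef33, a predicted guanine nucleotide exchange factor, stood at 1960.3 CPM in control and 1963 CPM in CKO and was 79.5 times the next label. Slc9a3, a sodium and proton exchanger, stood at 192 CPM in control and 178 CPM in CKO, 60.6 times the next label. Neither gene was among the markers used, and both had nearly equal levels in the libraries over all of Glut_21. In nuclei with a Ptprd UMI the Arhgef33 ratio was 0.770 (0.689 to 0.859), and in nuclei without one 1.01 (0.929 to 1.09). Calcium handling was represented by Atp2a3, a calcium pump of the endoplasmic reticulum, at 59.4 times the next label and Casq2, calsequestrin, which binds calcium in its lumen, at 50.4 times. Arap1, Aff1, Ptpn13 and Mdfi were 40.9, 45.1, 36.1 and 31.6 times the next label. Col18a1, a basement membrane collagen, was 29.7 times, and the dynein heavy chain gene Dnah6 28.6 times. Dnah6 led among neuronal labels only, since it stood at 71.5 CPM over both libraries against 112.9 CPM in all other nuclei, 0.634 times. Noncoding genes made up much of the rest. Gm36723 (chromosome 12, 25353754 to 25522003) had 377 CPM in control and 359 CPM in CKO and was 155 times the next label, and 9630028H03Rik and Gm13944 were 37.1 and 22.4 times, as were Lincmd1 at 43.6 and the predicted coding gene 4930469K13Rik at 24.4 times. The largest fold, 346 for 4632404M16Rik, is uncertain, since that gene (chromosome 3, 102041931 to 102044812) lies inside Casq2 on the same strand. Gm45620, 95.1 times the next label, overlaps Arap1 on the opposite strand and is uncertain as well.

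Of the 2672 genes with at least 100 UMIs in Glut_21, 448 (16.8%) were at least 2-fold above other neurons and 418 (15.6%) at least 2-fold below. In a list of 15 calcium signalling genes, added after values were seen and so high by choice, all 15 were, and none was past 2-fold between libraries. Homer3, a postsynaptic scaffold that binds Itpr1, stood at 303 CPM in control and 297 CPM in CKO, 391 times other neurons. Its library ratio was 0.982 (0.830 to 1.16), so it did not separate the libraries. The phospholipases Plcb4 and Plcb3 were 4.40 and 382 times other neurons. Calcium release and reuptake genes followed, with Ryr1 at 444 CPM in control and 519 CPM in CKO and Atp2a2 at 661 CPM in control and 699 CPM in CKO. Ryr1, the muscle-type ryanodine receptor, was 21.4 times other neurons, and the calcium buffer Pvalb was 8.22 times. The scaffolds Shank2 and Shank1 were 6.30 and 2.98 times other neurons, at 1879.8 CPM in control and 2009 CPM in CKO for Shank2.

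Among 12 transcription factor genes of Purkinje cell development, an added list, 8 of 10 with enough UMIs were at least 2-fold above other neurons, against 16.8% of all genes, and the list was chosen with those values in view. Ebf1, of the early B cell factor family, stood at 1831 CPM in control and 2022 CPM in CKO, 11.4 times other neurons. Ebf2, which marks a subset of Purkinje cells, stood at 275 CPM in control and 266 CPM in CKO. Foxp4 was 35.9 times other neurons and Foxp2 2.50 times. The LIM homeodomain genes Lhx1 and Lhx5 were 14 and 30.6 times, with 81 UMIs in control and 71 in CKO for Lhx1. None of the list was past 2-fold between libraries, and the extremes were Ebf3 at 0.735 (0.525 to 1.02) and Lhx5 at 1.27 (0.866 to 1.85).

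Ion channel, receptor and cadherin genes lay on both sides of other neurons, and more of them below. Of members with enough UMIs, 2 of 15 potassium channel genes were at least 2-fold above and 8 below, 3 of 9 calcium channel genes above and 6 below, 1 of 7 AMPA and kainate receptor genes above and 2 below, none of 4 NMDA receptor genes above and all 4 below, and 1 of 12 cadherin genes above and 8 below. Over all genes 16.8% were above and 15.6% below. The large-conductance potassium channel Kcnma1 stood at 4241 CPM in control and 4506 CPM in CKO, 2.51 times other neurons. The P/Q-type calcium channel Cacna1a stood at 1913 CPM in control and 2098 CPM in CKO, 2.33 times, the T-type channel gene Cacna1g at 290.4 CPM in control and 378 CPM in CKO, 3.78 times, and the auxiliary subunit gene Cacna2d2 was 5.65 times. The library ratio of Cacna1g, 1.30 (1.11 to 1.52), was the largest of the calcium channel list and under 2-fold. The kainate receptor Grik1 was 3.55 times other neurons and the AMPA receptors Gria2 and Gria3 1.37 and 1.74 times, while Gria4 was 0.377 times. The cadherin at least 2-fold above was Cdh18, at 3503 CPM in control and 3921 CPM in CKO and 2.99 times other neurons, while Cdh13 was the lowest of them at 0.234 times. On the lower side, Grin2b of the NMDA receptors was 0.260 times, the potassium channel Kcnq5 0.275 times and the calcium channel Cacna1c 0.261 times other neurons.

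Genes of both kinds of cerebellar stripe were present. Aldoc (chromosome 11, 78213619 to 78218889), the zebrin II enzyme, stood at 104 CPM in control and 121 CPM in CKO, 11.9 times other neurons, and after thinning was held by 15 of 123 control and 21 of 171 CKO nuclei (12.2% and 12.3%), with none in Glut_0. The unthinned shares were 41.2% and 29.7%. In nuclei without a Ptprd UMI, described further on, the thinned counts were 7 of 66 in control and 17 of 93 in CKO (10.6% and 18.3%). Unthinned, that set had 37.8% and 35.9%. The shares were thus near equal over all thinned nuclei, and in the smaller set their order changed with thinning. Ebf2, found in zebrin-negative cells, was held by 3 of 36 nuclei with Aldoc and 67 of 258 without after thinning, that is 8.33% (1.75% to 22.5%) against 26.0% (20.7% to 31.8%). Plcb3, found in zebrin-positive cells, was held by 4 of 36 nuclei with Aldoc and 24 of 258 without, with 11.1% and 9.30%. Plcb4, which is complementary to Plcb3 in the cerebellum, gave 52.8% and 53.1%. In Glut_0 thinned in the same way, Ebf2 was in 0.271% and 0.168%, Plcb3 in 0% and 0% and Plcb4 in 7.27% and 2.19% of control and CKO nuclei. Ebf2 was the rarer beside Aldoc, although its intervals overlapped, and no difference was detectable for Plcb3 or Plcb4 at this depth. Unthinned, Ebf2 was in 44.9% and 52.0%, Plcb3 in 44.1% and 18.5%, and Plcb4 in 84.7% and 75.8% of nuclei with and without Aldoc.

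Glut_21 made up 0.817% (0.686% to 0.966%) of control brain nuclei and 1.42% (1.24% to 1.63%) of CKO brain nuclei, 136 of 16649 and 209 of 14675. The CKO share was the larger, with a ratio of 1.74 (1.40 to 2.18). Among nuclei with a neuronal label the shares were 1.65% and 2.50%. The higher number in CKO was not particular to Glut_21. Glut_0 had 2112 nuclei in control and 3102 in CKO, Glut_17 had 244 and 419, and Glut_19 had 218 and 336. Other labels went the other way, with 1858 and 251 nuclei in Glut_5 and 198 and 53 in GABA_22, a label with Kit, a marker of molecular layer interneurons. What the share owes to the tissue taken into each pellet was not tested.

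Between the libraries few genes of Glut_21 differed much. Of 2672 genes with at least 100 UMIs, 31 (1.16%) were past 2-fold, meaning a ratio over 2 or under 0.5 with an interval that left out 1. Of these, 10 (0.374%) were higher and 21 (0.786%) lower in CKO. Scaled by TMM factors the split was 7 higher and 27 lower, and by median-ratio size factors, which moved every log2 ratio by -0.10, it was 7 and 28. The median log2 ratio of all these genes was 0.05, and the ratio ran from 0.775 at the 10th percentile to 1.36 at the 90th. The split turned with the UMI minimum, to 82 higher and 71 lower at 50 UMIs and to 520 higher and 354 lower with no minimum. These counts describe 2 libraries and are not a test of the genotype.

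**Figure D2:**
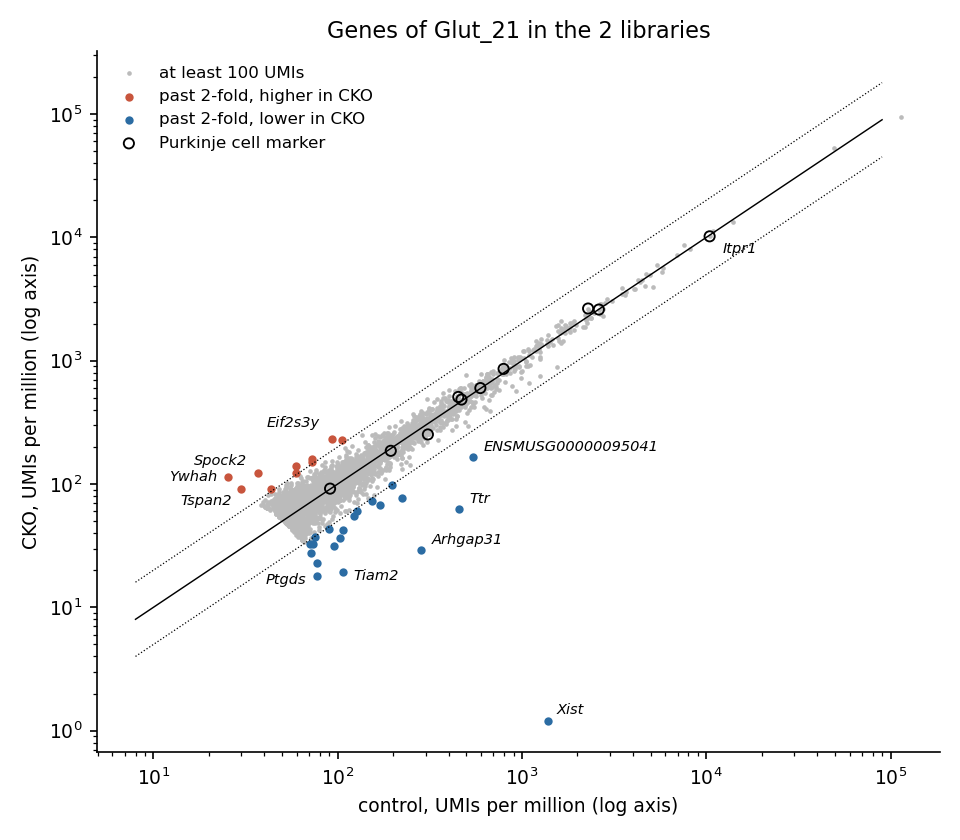
Levels of the 2672 genes with at least 100 UMIs in Glut_21, control against CKO, in CPM on log axes. Each point is a gene, the solid line marks equal levels and the dotted lines a 2-fold difference. The 21 blue genes are lower and the 10 red genes higher in CKO, and the circled Purkinje cell markers lie within the dotted lines.

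Sex chromosome genes separated the libraries. Xist, the RNA that silences an X chromosome in female cells, had 1581 UMIs in control and 1 in CKO, a ratio of 0.000873 (0.000022 to 0.00487). The Y chromosome genes Eif2s3y and Uty were higher in CKO, at ratios of 2.46 (1.94 to 3.15) and 2.18 (1.64 to 2.90). Of 136 control nuclei, 68 held Xist alone, 24 held a Y gene alone, 34 held both and 10 neither. In CKO 136 of 209 nuclei held a Y gene. The control pool thus had RNA of both sexes and the CKO pool almost none of Xist, so the sex of the animals and the genotype cannot be told apart. Without these genes 28 genes were past 2-fold, 8 higher and 20 lower. With control limited to 39 nuclei that held a Y gene and at most 1 Xist UMI, a choice made after seeing the data, the split turned to 190 higher and 7 lower, 7 of the 31 genes were shared with those above, and the ratio of Uty was 0.967. Choosing control nuclei for Y genes itself raises those genes in control.

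Among genes with at least 100 UMIs, the lowest ratio outside the sex genes was in Arhgap31 (chromosome 16, 38417528 to 38533854), which inactivates the small GTPases Cdc42 and Rac1. It had 324 UMIs in control and 24 in CKO, a ratio of 0.102 (0.0646 to 0.155), and after thinning was held by 39 of 123 control and 1 of 171 CKO nuclei, against 3 of 1844 and 1 of 2379 nuclei of Glut_0. Arhgap31 was therefore common in control Glut_21 and rare in CKO Glut_21. Over both libraries its level in Glut_21 was 35.2 times that of other neurons but 0.996 times that of all other nuclei. In other neurons its ratio was 0.363, and in Glut_0 alone it was 0.610 (0.259 to 1.33), an interval that included 1. Tiam2, which activates Rac1, had 122 UMIs in control and 16 in CKO, a ratio of 0.181 (0.100 to 0.306), while in other neurons its ratio was 1.16. The taurine transporter Slc6a6 had 255 UMIs in control and 64 in CKO, a ratio of 0.347 (0.259 to 0.457), and 0.499 in other neurons. Hook1, a dynein adaptor, and Mapk4, an atypical MAP kinase, had ratios of 0.329 (0.206 to 0.509) and 0.354 (0.229 to 0.533) and were near equal in other neurons, at 1.01 and 0.936. Ttr, made in quantity by choroid plexus, had a ratio of 0.138 (0.102 to 0.184). Ptgds, made in quantity by meninges, had 88 UMIs in control and 15 in CKO, a ratio of 0.235 (0.126 to 0.410), but 76 of the control UMIs were in 1 nucleus. Without the nucleus with most UMIs in each library, a choice made after seeing the data, the Ptgds ratio was 1.38 (0.567 to 3.36), and 30 of the 31 genes past 2-fold stayed past it. The RNA listed under ENSMUSG00000095041, which was not matched by name to the annotation used here, had a ratio of 0.302 (0.249 to 0.364). Other lower genes were Rgl1, Sv2b, Khdrbs3, Tle4, Pard3b, Tbc1d1, A830018L16Rik, Tbl1x, Slc25a27, Tshz2 and Hif1a, at ratios from 0.387 to 0.498. Of the 21 lower genes, 6 had at most 3 UMIs in the nuclei of Glut_21 without Ptprd, a set described further on, among them Ttr, Ptgds, Sv2b, Khdrbs3 and A830018L16Rik. Their differences thus lay in the nuclei that also held RNA of other cell types. After thinning, the share of nuclei holding the gene was lower in CKO for 19 of the 21, the exceptions being Ptgds and Slc25a27. Slc25a27 was in 4.07% of control and 4.09% of CKO nuclei, against 12.47% and 13.41% of Glut_0, and Hif1a in 3.25% and 2.34%, against 4.23% and 4.71%. At equal depth the difference was thus absent for Slc25a27 and small for Hif1a, each on few nuclei.

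On the higher side, Ywhah (chromosome 5, 33176114 to 33185311), the eta form of the 14-3-3 adaptor proteins, had 29 UMIs in control and 94 in CKO, a ratio of 4.48 (2.92 to 7.04). After thinning it was held by 1 of 123 control and 24 of 171 CKO nuclei, against 12 of 1844 and 5 of 2379 nuclei of Glut_0. Its ratio in other neurons was 0.585, on the opposite side of 1. Spock2, an extracellular proteoglycan, had 42 UMIs in control and 101 in CKO, a ratio of 3.32 (2.30 to 4.88), and 2.89 in other neurons. Its level over both libraries of Glut_21 was 0.255 times that of all other nuclei. The tetraspanin Tspan2 had 34 UMIs in control and 76 in CKO, a ratio of 3.09 (2.03 to 4.77), and 0.736 in other neurons. The splicing factor gene Hnrnpc, the noncoding Sox2ot, the imidazoline receptor gene Nisch, the kinase Taok1 and Frmd4b had ratios from 2.07 to 2.38. Of the 28 genes without sex genes, 15 had a ratio on the same side of 1 in other neurons, near an even split. A ratio past 2-fold the same way was found there for 5. Other neurons pool labels whose numbers of nuclei differed between the libraries.

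Of 21 lists, mostly of neuronal and signalling genes but with a sex chromosome list among them, 19 had no member past 2-fold. For 2 of these none reached 100 UMIs. Over their 118 members with at least 100 UMIs, 4 (3.39%) were past 2-fold, 2 higher and 2 lower, against 1.16% of all genes. They were Eif2s3y, Uty and Xist, all 3 members of the sex chromosome list with enough UMIs. The other was Sv2b from the synaptic vesicle list, with 122 UMIs in control and 35 in CKO. Outside the sex chromosome list Sv2b was thus the only member past 2-fold, and the 3.39% rests mainly on sex chromosome genes. The median log2 ratio over the members was -0.02. None of 7 AMPA and kainate receptor genes with enough UMIs, 10 GABA and glycine receptor genes, 15 potassium channel genes or 16 synaptic adhesion genes was past it. Immediate early genes, which neurons switch on with activity, summed to 133 CPM in control and 101 CPM in CKO, a ratio of 0.763 (0.578 to 1.00), with Homer1 the most abundant. Interferon response genes summed to 35.0 and 51.9 CPM, and heat shock and unfolded protein response genes to 142 and 155 CPM. Hypoxia and glycolysis genes summed to 449.6 and 420.4 CPM. Homer1 alone had a ratio of 0.555 (0.377 to 0.805), lower in CKO and short of 2-fold, and 142 of its UMIs were in nuclei with Ptprd and 1 in nuclei without. The interferon ratio was 1.48 (0.942 to 2.34). Its interval and that of the early gene sum included 1, so no difference in these sums was detectable at this depth. Sums of some other lists left out 1, on either side. Neuropeptide genes had 46 UMIs in control and 12 in CKO, a ratio of 0.360 (0.174 to 0.691). Synaptic vesicle genes stood at 0.873 (0.832 to 0.915), and nicotinic, muscarinic, serotonin and dopamine receptors at 0.768 (0.674 to 0.874). Voltage-gated calcium channels were higher in CKO, at 1.08 (1.03 to 1.13).

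In the TGF-beta pathway most genes of Glut_21 had few UMIs. Of 14 ligand and receptor genes, 2 reached 100 UMIs, Bmpr2 at 1.04 (0.746 to 1.44) and Acvr1 at 0.940 (0.640 to 1.37). Tgfb2 (chromosome 1, 186354985 to 186438294), a TGF-beta ligand, had 60 UMIs, below that minimum, at 22.1 times its level in other neurons pooled but 0.858 times that of Glut_20 and 0.354 times that of all other nuclei. It had 56 UMIs in control and 4 in CKO, that is 49.0 CPM in control and 4.83 CPM in CKO, a ratio of 0.0986 (0.0260 to 0.267), and in other neurons the ratio was 0.213 (0.0878 to 0.446), on the same side. After thinning it was held by 4 of 123 control and 1 of 171 CKO nuclei, and by no nucleus of Glut_0. Tgfb2 was thus the higher in control, and Tgfbr1 the higher in CKO, each on few counts. In other neurons the Tgfbr1 ratio was 0.601 (0.452 to 0.792), on the opposite side of 1. Tgfbr2, the type II receptor, had 4 UMIs in control and 8 in CKO. Among SMAD genes and their targets only Id2 reached 100 UMIs. Id2, an inhibitor of helix-loop-helix factors that BMP signalling induces in many cells, stood at 273 CPM in control and 243 CPM in CKO, 17.7 times other neurons, with a library ratio of 0.890 (0.741 to 1.07). Of 22 genes that had differed between libraries in endothelial nuclei, none of the 5 with enough UMIs was past 2-fold in Glut_21.

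Glut_21 nuclei fell into a pair of sets by whether they held any Ptprd UMI. Ptprd (chromosome 4, 75859475 to 78130198), a receptor phosphatase of synaptic adhesion, had no UMI in 191 of 345 nuclei and 5042 UMIs in the other 154. The nuclei without it held 765360 UMIs in all, which allows a level of up to 3.92 CPM. They were 54.4% (45.7% to 63.0%) of control and 56.0% (49.0% to 62.8%) of CKO nuclei, and each share lay within the interval of the other. By UMIs the libraries differed more. Nuclei with Ptprd held 744891 of 1143178 control UMIs and 460777 of 827850 CKO UMIs, the larger part in control. Library ratios over all of Glut_21 were taken from these sums. Median depth was 3946 and 2486 UMIs without Ptprd and 9716 and 3430.5 UMIs with it, in control and CKO. The set was chosen on Ptprd after values were seen, so the genes that follow it are a description. Among nuclei of at least 1000 UMIs, 99.8% of Glut_0 and 5.56% of GABA_22 held Ptprd, against 45.9% of Glut_21. Glut_20 with 44.3% and vascular smooth muscle cells with 44.5% were near it, so a share of this size was not particular to Glut_21. These shares were unthinned, at median depths of 1869 UMIs in Glut_20, 2555 in vascular smooth muscle cells and 4378 in Glut_21. After thinning, Ptprd was in 32.5% of control and 39.2% of CKO nuclei of Glut_21.

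Many genes were seen only beside Ptprd. Beside Ptprd itself, 74 genes had at least 100 UMIs in the nuclei with it and none in the nuclei without it, and no gene had the reverse. The nuclei with Ptprd also held the more UMIs, 1205668 in all, which favours that direction. They included the potassium channel genes Kcnq5 with 1087 UMIs and Kcnb2 with 688, the secreted protein gene Tafa1 with 907, the prohormone convertase Pcsk2 with 780, and Rbfox3, the gene of the neuronal marker NeuN, with 267. Purkinje cells are known to lack NeuN staining. In the nuclei without Ptprd the glutamate transporter genes Slc17a7, Slc17a6 and Slc17a8 had no UMI, and granule cell markers summed to 0 CPM against 520.0 CPM in the nuclei with it. Haemoglobin and other erythroid genes summed to 0 and 145 CPM, and oligodendrocyte markers to 13.1 and 645 CPM. Other lists were lower without Ptprd but not near 0, as choroid plexus markers at 327 and 1012 CPM, molecular layer interneuron markers at 261 and 878 CPM, piriform and entorhinal neuron markers at 210.4 and 1050.9 CPM and Bergmann glia markers at 65.3 and 192 CPM. RNA of several other cell types was therefore near absent without Ptprd, and that of others lower. Purkinje cell markers went the other way, summing to 27518 CPM without Ptprd and 12489 CPM with it. All 10 were lower in nuclei with Ptprd, at ratios from 0.375 for Slc1a6 to 0.833 for Rora. Over the 2736 genes with at least 5 UMIs beside Ptprd and none without, levels on a log scale had a correlation of 0.715 with all other nuclei pooled, 0.625 with Glut_19, the nearest single label, and 0.139 with endothelial cells, the farthest. These are correlations across genes, which are not independent. Why RNA of other cell types went with Ptprd was not tested.

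**Figure D3:**
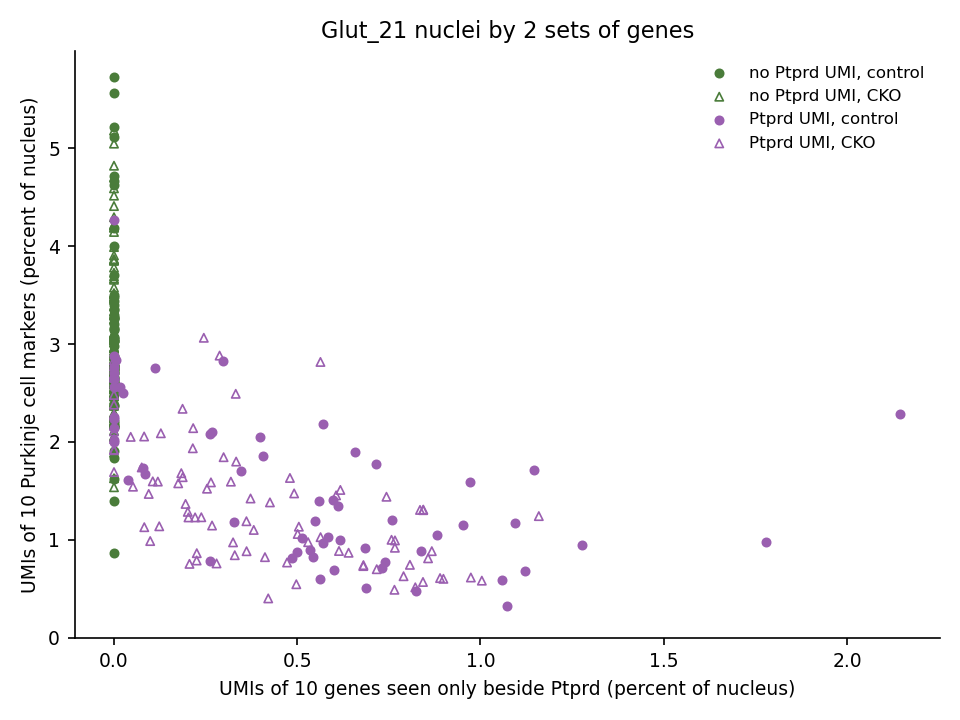
Each point is a Glut_21 nucleus, placed by the percent of its UMIs in the 10 most abundant genes seen only beside Ptprd (horizontal, Ptprd itself left out) and in 10 Purkinje cell markers (vertical). Colour marks whether the nucleus held a Ptprd UMI, and filled circles and open triangles mark control and CKO. Nuclei without Ptprd lie at 0 by construction on the horizontal axis, and nuclei far along it hold less of the Purkinje cell markers in both libraries.

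In nuclei without Ptprd, Arhgap31 had 175 UMIs in control and 0 in CKO, at least 53.8-fold lower in CKO against a floor of 3 UMIs, and in nuclei with Ptprd its ratio was 0.260 (0.162 to 0.403). Ywhah had 0 UMIs in control and 66 in CKO without Ptprd, at least 23.9-fold higher in CKO, and a ratio of 1.56 (0.895 to 2.72) with it. Spock2 had 0 UMIs in control and 60 in CKO without Ptprd, at least 21.7-fold higher, and a ratio of 1.58 with it. All counts are those left after the authors' removal of background RNA, which may have set such genes to 0, so these bounds hold for the deposited counts only. The part of that removal in the values of 0 was not tested. In nuclei without Ptprd, 2352 genes had at least 20 UMIs in either library. Of these, 12 had at least 20 UMIs in control and 0 in CKO, and 12 had at least 20 in CKO and 0 in control. The first set, beside Xist and Arhgap31, was Tiam2, Mapk4, Lamb1, Sat1, Hook1, Tgfb2, Fam110b, Htra1, Amot and Shroom2, with Tgfb2 at 23 UMIs in control and 0 in CKO, at least 7.07-fold lower. The second set included Ywhah, Spock2, Ece1, Tspan2, Gng13, Tpm3, Ice1, Nptxr, Tmem64, Ptprcap and Ap3d1, with Ece1, the endothelin converting enzyme, at 0 UMIs in control and 47 in CKO, at least 17.0-fold higher. In nuclei with Ptprd, 4820 genes had at least 20 UMIs in either library, and only 1, Gm16867, was in control alone and 0 in CKO alone. Tgfbr1 had 1 UMI in control and 19 in CKO without Ptprd, a ratio of 20.6 (3.28 to 857).

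Clustering the 294 thinned nuclei into 3 groups, without sex chromosome genes, followed the same division. Group 1 held 198 nuclei, 87 control and 111 CKO, 19.7% of them with Ptprd. Group 2 held 83 nuclei, 34 control and 49 CKO, all with Ptprd. Purkinje cell markers summed to 25796 CPM in group 1 and 8642 CPM in group 2, the lower by far. The leading genes of group 1 included 1700123J17Rik, Lincmd1, the cytokine gene Il22b and Alpk2 at 20.7, 7.55, 6.70 and 6.56 times the rest of the nuclei, with Skor2 at 4.70 times. Group 2 was led by Col25a1, a transmembrane collagen, with 89 UMIs against 1 in the rest of the nuclei, 116 times their level (20.2 to 4619.7). The potassium channel gene Kcnt2 had 188 UMIs against 3, 81.5 times (27.4 to 399). Group 3 held 13 nuclei, 2 control and 11 CKO, all with Ptprd. Its highest fold was that of Ptgds, whose 76 UMIs there were in 1 control nucleus, and next came Trpm3 at 5.11 times (4.19 to 6.18). Groups 1 and 2 took 70.7% and 27.6% of control and 64.9% and 28.7% of CKO nuclei. Aldoc was 2.80 times and Plcb4 2.31 times the rest in group 1, so genes of both stripe kinds were higher there.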

How the data were processed

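Nuclei of 2 pooled brains per library were processed by the authors. The steps were PIPseeker alignment, CellBender removal of empty droplets and background, SOLO and manual removal of doublets, and Seurat clustering. The cluster labels used here are those deposited. The deposited counts are whole numbers of UMIs for every gene in every nucleus, so no normalization preceded the sums used here. The labels list the build mm10 and the study's methods a GRCm39 index. Gene symbols are as deposited, and coordinates are from the GENCODE annotation of GRCm39, matched by symbol. Some members of the lists are not reported here. Retinal counts were not used beyond the number of nuclei.

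UMIs were summed per label and library in Python 3.11.15 with numpy 2.4.6 and scipy 1.17.1, scaled to CPM and compared as ratios with exact conditional binomial 95% intervals. TMM factors came from edgeR 4.0.16. The ratio rule was tested on simulated data. No gene was tested, because each genotype had 1 library and the clusters were made from these genes. Thinning drew 1000 UMIs per nucleus without replacement. Thinned nuclei were grouped by Ward linkage on 10 principal components of 1000 variable genes.

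Named genes are the cell type markers, the 20 genes with the largest fold over any other neuronal label (in at least 10% of nuclei, with at least 50 UMIs), the 10 highest and 10 lowest ratios at 100 UMIs or more, list members with most UMIs or past 2-fold, both TGF-beta receptors and genes of the sex chromosomes. The members and lists were chosen with earlier results of these data known. The Ptprd division, the lists described as added and the genes tied to them were chosen after values were seen. Alternatives covered denominators, UMI minimums, scaling and subsets of nuclei.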

Additional observations from a re-analysis of the deposited data

How the results depend on the processing

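The CKO over control ratio of the Glut_21 share kept its direction under 3 other denominators, from 1.51 to 1.86, while the shares themselves were 1.16% and 1.92% of nuclei with at least 1000 UMIs, 1.65% and 2.50% of neuronal labels, and 0.960% and 1.78% without endothelial cells. The count of genes past 2-fold followed the minimum on UMIs. It was 82 higher and 71 lower with 10 list members at 50 UMIs, 4 higher and 8 lower at 200, and 520 higher and 354 lower with 20 list members with no minimum. Without the 5% of nuclei with the most UMIs it was 15 higher and 29 lower, with 2 list members and 17 of the 31 genes kept. Without nuclei holding at least 2 markers of endothelial cells, oligodendrocytes, astrocytes or microglia it was 4 higher and 10 lower, with 2 list members and 5 genes kept among 1469 that still had enough UMIs. Thinned to 1000 UMIs, 394 genes had enough UMIs, 0 were higher and 1 lower, Xist, the 1 list member. In 3 further settings chosen after seeing the data, the count was 3 higher and 12 lower without Ptprd, 11 higher and 14 lower with Ptprd, and 190 higher and 7 lower with 31 list members when control was limited to 39 nuclei with a Y gene and at most 1 Xist UMI. In that last setting Tshz2 turned to 1.26 and Uty to 0.967, and the cause was not tested. Without the nucleus with most UMIs of a gene in each library, also chosen after seeing the data, Ptgds turned to 1.38, since 76 of its 88 control UMIs were in 1 nucleus. Of the values of genes past 2-fold, 259 of 262 stayed on their side of 1. Of the 31 genes themselves, 16 stayed past 2-fold in every alternative in which they had enough UMIs. Of the 20 leading genes, 9 were shared when ranked over all other nuclei, and the Purkinje cell markers raised were 8 or 9 of 10 in every setting. No paired analysis was possible because each genotype had 1 library. Depth limits what could be seen: genes under 100 UMIs were not counted, and the CKO library had fewer UMIs per nucleus.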

Other observations

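Several of the most abundant RNAs of Glut_21 were long neuronal genes that no list named, picked here after their values were seen. Prkg1, a cyclic GMP-dependent protein kinase that acts in long-term depression at parallel fibre synapses, stood at 5421 CPM in control and 5999.9 CPM in CKO, 6.39 times other neurons. Kcnab1, a potassium channel subunit, stood at 3069 CPM in control and 3075 CPM in CKO, 7.32 times other neurons. Auts2, a nuclear regulator of neuronal development, stood at 7531 CPM in control and 8608 CPM in CKO, 3.35 times. Anks1b, a synaptic ankyrin repeat protein, and Dmd, dystrophin, were 4.43 and 2.88 times other neurons, and Dab1, the adaptor of reelin signalling, 2.06 times. All of these had library ratios between 0.959 and 1.14. Kcnip4, a potassium channel interacting protein, was among the abundant genes below other neurons, at 0.449 times. It was lower in CKO with a ratio of 0.779 (0.746 to 0.813). Of its 9146 UMIs, 7411 were in nuclei with Ptprd. Within the sets its ratio was nearer to 1, at 0.842 (0.802 to 0.884) with Ptprd and 0.848 (0.770 to 0.933) without.

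Among list genes with 50 to 99 UMIs, Slc2a3, a glucose transporter of neurons, had 43 UMIs in control and 10 in CKO, a ratio of 0.321 (0.144 to 0.649), and Pkm, pyruvate kinase, had 25 UMIs in control and 41 in CKO, a ratio of 2.26 (1.34 to 3.89). Dlg4, the postsynaptic scaffold PSD-95, had 45 UMIs in control and 14 in CKO, a ratio of 0.430 (0.218 to 0.797). The serotonin receptor Htr1b had 37 UMIs in control and 31 in CKO, a ratio of 1.16 (0.694 to 1.92), and was 9.26 times other neurons.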
